A study of Mus musculus with 6 samples.

Results

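The Gm10800 family is a group of 10 predicted mouse genes of like sequence: Gm10800 and Gm10801 on chromosome 2, Gm10722, Gm11168, Gm10721, Gm10720, Gm10718, Gm10717 and Gm10715 on chromosome 9, and Gm21738 on chromosome 14. The 10 genes were found by symbol among the 53379 Ensembl genes listed for each library, through GENCODE release M21. They were picked from earlier results of the same libraries, in which Gm10800 was abundant and higher in 1 group. Their levels and the difference between the groups are therefore given as a description, without a test that supports them. The libraries hold total RNA of small extracellular vesicles (sEV), the small membrane-bound particles that cells release, from primary cortical neurons of wild-type mouse embryos (genotype WT). NorEV are vesicles of control neurons, which the series text calls normoxic, and HypEV are vesicles of neurons with the treatment OGD/R, which it calls hypoxic. There were 3 libraries in each of the 2 groups. The labels do not spell out OGD/R, so hypoxia cannot be told apart from any other part of that treatment, and no label says that the libraries of a group came from separate cultures.

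Pericentromeric heterochromatin is the condensed chromatin beside the centromere. In the mouse it is built on major satellite, an AT-rich repeat whose units stand in tandem, and transcripts of both strands of this repeat are known from several tissues. Gene annotation can place predicted genes on such repeats, and a sequencing read from 1 copy can then match many others. Major satellite is known as a repeat of units of 234 bases, each made of shorter units alike to one another. No satellite reference was among the sources used here, so the 10 genes were not matched to it, and the sequence results below describe only the annotated transcripts.

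The copies were alike but not identical. Over the 45 pairs of the 10 genes, identity in the best-scoring alignment between any of their transcripts ran from 88.3% (Gm10801 with Gm21738) to 97.2%. The median was 93.6%. Identity with Gm10800 was lowest for Gm10801, at 89.8%, and highest for Gm10721, at 93.4%. The term near-identical thus holds at a limit of 90% over 80% of the shorter transcript, where Gm10800 had 10 copies, and at 95% it had 0. Of those 10 copies, 8 belong to the list. Gm10801 fell just short, and Gm10719 and Gm17535, both on chromosome 9, lie outside it. The third like gene outside the list was Gm26870, a long non-coding RNA gene on the opposite strand of the chromosome 9 cluster. No other gene with an annotated transcript in the files was alike to a member.

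A stretch of 150 bases is shown for 5 copies, chosen because it is the stretch over which these copies align best without a gap and because they cover the 3 chromosomes, the most abundant copies and a copy with no read. Each is written 5′ to 3′ on the strand of its gene, from a coding exon in GENCODE M21 on the mouse build GRCm38. Capitals mark bases that differ from Gm10800. The positions are chr2:98666735-98666884 on the minus strand for Gm10800, chr2:98662237-98662386 on the plus strand for Gm10801, chr9:3001292-3001441 on the plus strand for Gm10722, chr14:19417215-19417364 on the minus strand for Gm21738 and chr9:3014007-3014156 on the plus strand for Gm10721.
Gm10800: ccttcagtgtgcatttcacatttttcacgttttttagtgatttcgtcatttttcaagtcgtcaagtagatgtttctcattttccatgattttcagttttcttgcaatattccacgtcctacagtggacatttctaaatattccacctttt
Gm10801: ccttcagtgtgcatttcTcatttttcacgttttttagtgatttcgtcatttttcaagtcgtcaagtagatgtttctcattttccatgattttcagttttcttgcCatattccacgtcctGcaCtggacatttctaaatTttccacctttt
Gm10722: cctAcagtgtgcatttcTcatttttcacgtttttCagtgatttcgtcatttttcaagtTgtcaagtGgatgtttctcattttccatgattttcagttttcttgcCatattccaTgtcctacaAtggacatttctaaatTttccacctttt
Gm21738: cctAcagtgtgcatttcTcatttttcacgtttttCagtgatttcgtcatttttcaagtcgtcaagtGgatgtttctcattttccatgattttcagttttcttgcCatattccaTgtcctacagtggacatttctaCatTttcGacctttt
Gm10721: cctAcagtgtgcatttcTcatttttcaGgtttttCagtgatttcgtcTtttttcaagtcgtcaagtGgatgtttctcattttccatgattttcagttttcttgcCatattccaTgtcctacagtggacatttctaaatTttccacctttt
Gm10801 differed from Gm10800 at 5 of the 150 bases, and Gm10722, Gm21738 and Gm10721 at 9 each. Any of the 4 differed at 14 positions. At 3 positions all 4 carried the same base in place of that of Gm10800, and at 4 more the copies on chromosomes 9 and 14 shared a base that both chromosome 2 copies lacked.

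In most copies the longest exon matched itself as a tandem repeat would. When the longest exon was set against itself with a shift of 234 bases, 93.1% of the bases matched in Gm10800, 95.2% in Gm10722, 92.4% in Gm11168, 91.6% in Gm10715, 96.8% in Gm10718 and 97.9% in Gm10721. The median over all shifts was 29.9 to 31.6%. In Gm10801 the match at 234 bases was 67.3%, and in Gm10717 it was 82.7%, below the 89.4% found there at 467 bases. A shift of 234 bases compares only the bases of the exon that lie beyond it. The exon had 286 bases in Gm10801, 306 in Gm10800 and 328 in Gm10718 and Gm10721, so less than 1 unit was compared there. In Gm10722, Gm11168 and Gm10715 it had 483 bases, so more than 1 unit was compared. The longest exons of Gm21738 and Gm10720, at 234 and 273 bases, were too short for this shift and matched best at 176 bases (72.4% and 68.0%). A shift of 58 bases matched 52.2 to 60.9% in all 10 copies, so a shorter unit recurred with less identity. A pair of successive units from 1 exon of Gm10722 is shown to make the repeat visible, at chr9:3000962-3001195 and chr9:3001196-3001429 on the plus strand of GRCm38, with capitals where the second differs from the first.
Gm10722 unit 1: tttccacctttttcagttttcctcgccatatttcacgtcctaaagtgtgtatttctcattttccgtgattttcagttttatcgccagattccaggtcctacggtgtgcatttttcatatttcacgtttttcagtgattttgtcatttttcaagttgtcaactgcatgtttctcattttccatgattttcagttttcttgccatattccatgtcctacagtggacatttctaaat
Gm10722 unit 2: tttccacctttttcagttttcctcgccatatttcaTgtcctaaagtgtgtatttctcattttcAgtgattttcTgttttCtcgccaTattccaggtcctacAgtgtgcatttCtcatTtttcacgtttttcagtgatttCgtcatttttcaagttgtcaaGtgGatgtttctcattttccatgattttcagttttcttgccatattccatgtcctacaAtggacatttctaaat
The units differed at 12 of 234 bases and were the same at 94.9%.

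**Figure D1:**
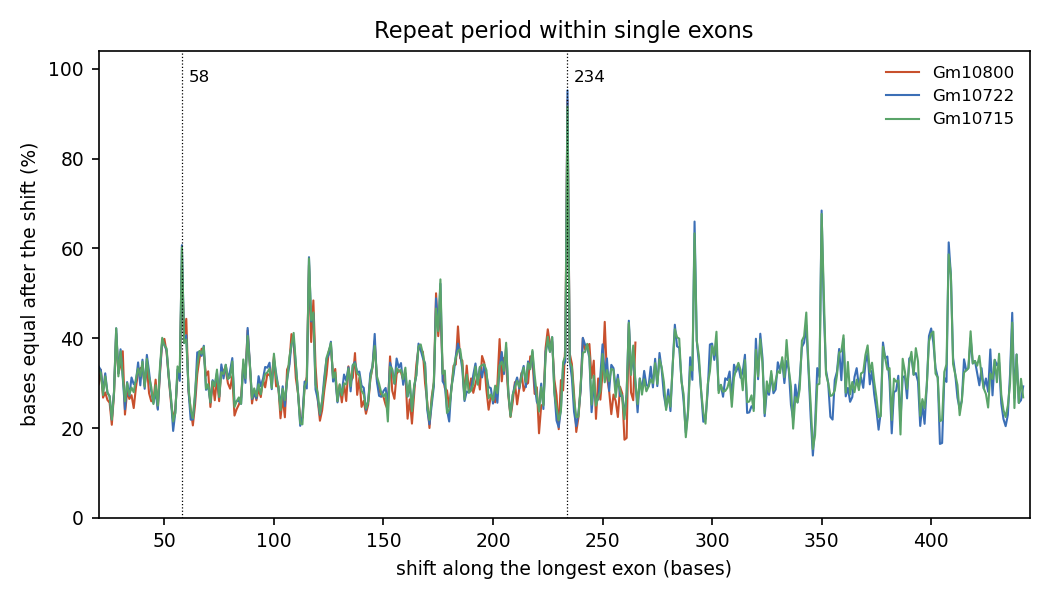
Share of bases (y axis, percent) that were equal when the longest exon of Gm10800, Gm10722 or Gm10715 was set against itself after a shift (x axis, bases). All 3 curves stay near 30% apart from peaks, the highest of which stands at 234 bases (91.6 to 95.2%), with a lower one at 58 bases.

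Base composition also set the copies apart from other coding genes. T made up 45.8% (Gm10800) to 47.5% (Gm10720) of the annotated sense strand, against a median of 24.8% over 21901 protein-coding genes, of which 22, the 10 copies included, were at or above the lowest member. GC was 34.3 to 36.0%, against a median of 49.1%. All 10 genes are annotated as protein-coding, and all their exons as coding sequence without a UTR. The chromosome 2 copies lie on opposite strands within chr2:98662237-98667301, Gm10801 at 98662237 to 98664083 (plus) and Gm10800 at 98666547 to 98667301 (minus), so each is read on its T-rich strand although the genomic strands differ. The 7 copies on chromosome 9 all lie on the plus strand, between 3000922 (start of Gm10722) and 3038316 (end of Gm10715). Gm21738 lies at 19415857 to 19418930 on the minus strand of chromosome 14.

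Gm10800 was among the most abundant genes of every library. Its level was 17808, 2480 and 7588 FPKM in NorEV 1, 2 and 3 and 29160, 24527 and 35892 FPKM in HypEV 1, 2 and 3, where FPKM is fragments per kilobase of transcript, scaled to the fragments counted on genes in the library. All HypEV libraries were above all NorEV libraries, the lowest HypEV by 1.38 times over the highest NorEV. Its rank by FPKM was 2 in 5 of the 6 libraries and 3 in NorEV 2. These levels rest on 12843, 2313 and 7485 reads in NorEV and 41216, 23402 and 31291 in HypEV. The NorEV mean was 9292 ± 7805 FPKM and the HypEV mean 29859 ± 5715 FPKM (SD, n = 3), a ratio of 3.21. Without NorEV 1 the NorEV mean was 5034 FPKM and the ratio 5.93, and with any other library left out the ratio was 2.35 to 3.50.

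Gm10801, the other copy on chromosome 2, was the next most abundant. Its level was 3828, 598 and 1379 FPKM in NorEV 1, 2 and 3 and 4892, 2929 and 5945 FPKM in HypEV 1, 2 and 3. The groups overlapped, since NorEV 1 was above HypEV 2. The rank of Gm10801 by FPKM was 4 to 6 in 5 libraries and 16 in NorEV 2, the library in which every copy with reads except Gm10720 was lowest.

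The most abundant copy on chromosome 9 was Gm10722, the first of the cluster. It stood at 718, 140 and 390 FPKM in NorEV 1, 2 and 3 and at 930, 729 and 1834 FPKM in HypEV 1, 2 and 3. The groups did not overlap, but HypEV 2 exceeded NorEV 1 by only 1.01 times, less than the counting error of these reads. Gm11168 was at 169, 25.9 and 68.5 FPKM in NorEV and at 194, 214 and 323 FPKM in HypEV, again without overlap. Gm10717, a gene with 9 annotated transcripts, was at 94.99, 15.5 and 43.0 FPKM in NorEV and at 77.8, 63.7 and 142 FPKM in HypEV. Here NorEV 1 lay above HypEV 1 and 2.

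Gm10718 was at 28.2, 5.19 and 13.8 FPKM in NorEV and at 44.6, 50.8 and 64.5 FPKM in HypEV, with no overlap. The other 3 copies on chromosome 9 held few reads or none. Gm10715 had 0 to 4 reads in a NorEV library and 3 to 11 in a HypEV library (0 to 5.38 and 3.05 to 8.89 FPKM). Gm10720 had 0 to 4 and 2 to 12 reads (0 to 5.47 and 1.40 to 12.4 FPKM). Gm10721 was listed at 0 in all 6 libraries, which allows up to 3 reads, or 2.09 to 4.10 FPKM.

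Gm21738, the copy on chromosome 14, stood between the most abundant copies of chromosome 9. Its level was 480, 92.5 and 178 FPKM in NorEV 1, 2 and 3 and 672, 392 and 883 FPKM in HypEV 1, 2 and 3. NorEV 1 was above HypEV 2. In level per length, in every library Gm10800 was above Gm10801, Gm10801 above Gm10722, Gm10722 above Gm21738, and Gm21738 above Gm11168. Gm10720 and Gm10715 did not differ in mean level beyond their spread.

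**Figure D2:**
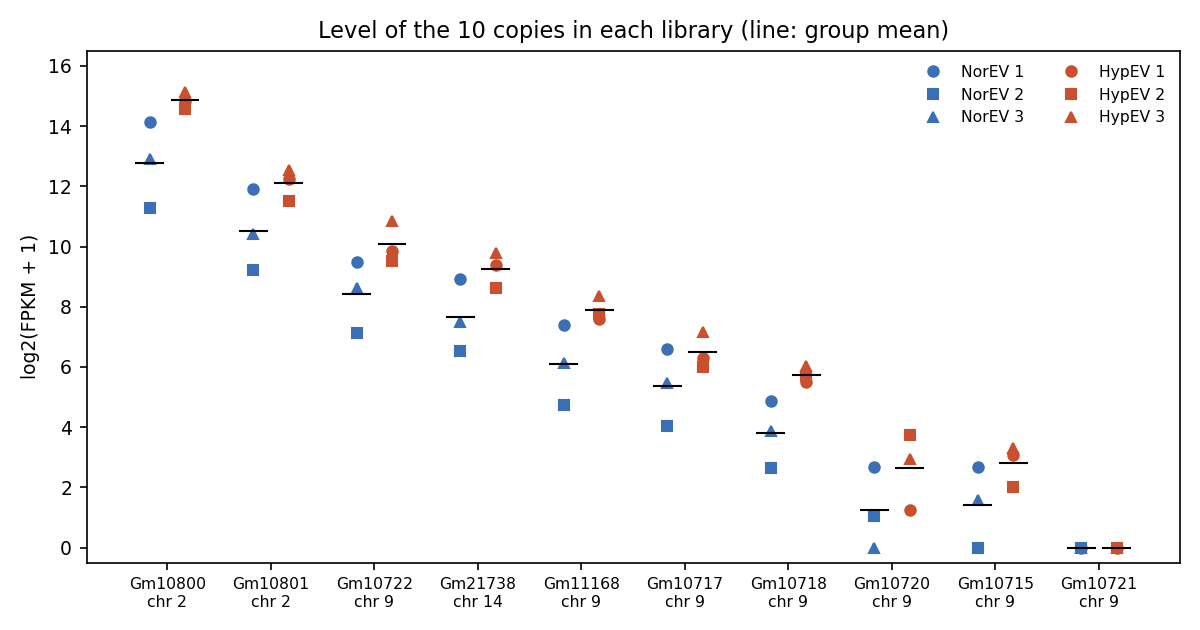
Level of each copy, as log2(FPKM + 1), in the 3 NorEV (blue) and 3 HypEV (orange) libraries. Points are libraries, shapes are replicate numbers and lines are group means. Gm10800 lies between 2480 and 35892 FPKM, NorEV 2 (blue square) is the lowest library for 8 of the 9 copies with reads, and Gm10721 is at 0 throughout.

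All 3 HypEV libraries were above all 3 NorEV libraries in 4 of the 9 copies that had a mean of at least 1 FPKM (Gm10800, Gm10722, Gm11168 and Gm10718), and the other 5 overlapped. The same held for 1.1% of all 44125 genes with that mean (487 genes). Since the copies were picked on this contrast, nothing is read from the larger share. Without NorEV 1 it was 9 of 9 copies, and without HypEV 2 it was 7 of 9, beside 2.73 and 2.11% of all genes. The count was 3 of 9 copies (Gm10800, Gm11168 and Gm10718) when the libraries were rescaled without the Gm23935 family, described below, beside 4.03% of all genes.

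In the fit over all 44125 genes with limma on log2(FPKM + 1), all 9 copies were higher in HypEV, and 0 of 9 passed a Benjamini-Hochberg adjusted p of 0.05. The background was 0.0159% of genes called (1 gene higher and 6 lower), and 2985 genes had an unadjusted p under 0.05. The log2 differences of the copies, HypEV minus NorEV, ran from 1.13 for Gm10717 to 2.09 for Gm10800, with a median of 1.62, beside a median of -0.44 over all genes tested. Without NorEV 1 these medians were 2.25 and -0.53. Their limma adjusted p ran from 0.619 to 0.926. For Gm10800 the standard error was 5.20, in a fit that takes part of its estimate of the spread from a trend over genes of like abundance. Without that trend the limma standard error was 0.75 and the adjusted p 0.748. The 2 groups spread unequally for this gene, with an SD of log2(FPKM + 1) of 1.43 in NorEV and 0.28 in HypEV.

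A fit of reads recovered from the FPKM steps with limma-voom, added after the data were seen, called 5 of the 9 copies higher: Gm10800, Gm10801, Gm10722, Gm21738 and Gm11168. It called 0.0401% of 42345 genes higher (17 genes). Its standard error for the log2 difference of Gm10800 was 0.14, far below the SD of 1.43 between the NorEV libraries on the log2 scale, so the call is given as a value and nothing is read from it. The 2 fits share the same libraries.

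Of the fragments counted on genes, the 10 copies held 1.47% in NorEV 1 (interval 1.45 to 1.49), 0.212% in NorEV 2 (0.205 to 0.220) and 0.617% in NorEV 3 (0.604 to 0.629). In HypEV they held 2.30% in library 1 (2.28 to 2.32), 1.86% in library 2 (1.84 to 1.89) and 2.89% in library 3 (2.86 to 2.91). These 95% Wilson intervals cover counting error only and are narrow beside the differences between libraries of 1 group. The NorEV mean was 0.766 ± 0.641% and the HypEV mean 2.35 ± 0.512% (SD, n = 3), a ratio of 3.07. Without NorEV 1 the NorEV mean was 0.414% and the ratio 5.67, and with any other library left out the ratio was 2.25 to 3.39. The lowest HypEV library was 1.27 times the highest NorEV library. By place, chromosome 2 held 0.194 to 1.37% of a NorEV library and 1.77 to 2.67% of a HypEV library. Chromosome 9 held 0.0124 to 0.0674% and 0.0710 to 0.157%, and chromosome 14 held 0.00630 to 0.0327% and 0.0267 to 0.0601%. The groups did not overlap on chromosomes 2 and 9 and overlapped on chromosome 14.

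The share of another set of RNAs also varied widely between the libraries. Gm23935 and its like short entries took 4.34, 0.561 and 0.303% of the fragments in NorEV 1, 2 and 3. In HypEV 1, 2 and 3 they took 49.6, 1.97 and 24.5%, and so lowered the FPKM of every other gene in HypEV 1 and 3. Of the fragments outside those 6 entries, the Gm10800 family took 1.53, 0.214 and 0.618% in NorEV and 4.56, 1.90 and 3.82% in HypEV. The groups still did not overlap. HypEV 2, where Gm23935 was low, was the lowest HypEV library on both scales. NorEV 1, where Gm23935 was highest among NorEV, was the highest NorEV library on both. Other orders differed. NorEV 2 was above NorEV 3 in Gm23935 and below it in the family's share on both scales. HypEV 2 was below NorEV 1 in Gm23935 and above it in the family's share on both. HypEV 1 was above HypEV 3 in Gm23935, below it in the family's share of all fragments and above it outside the 6 entries. What part library makeup had in the difference was not tested. In RNA of a bulk vesicle sample, fewer vesicles or cells that carry a transcript and less of it in each cannot be told apart.

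**Figure D3:**
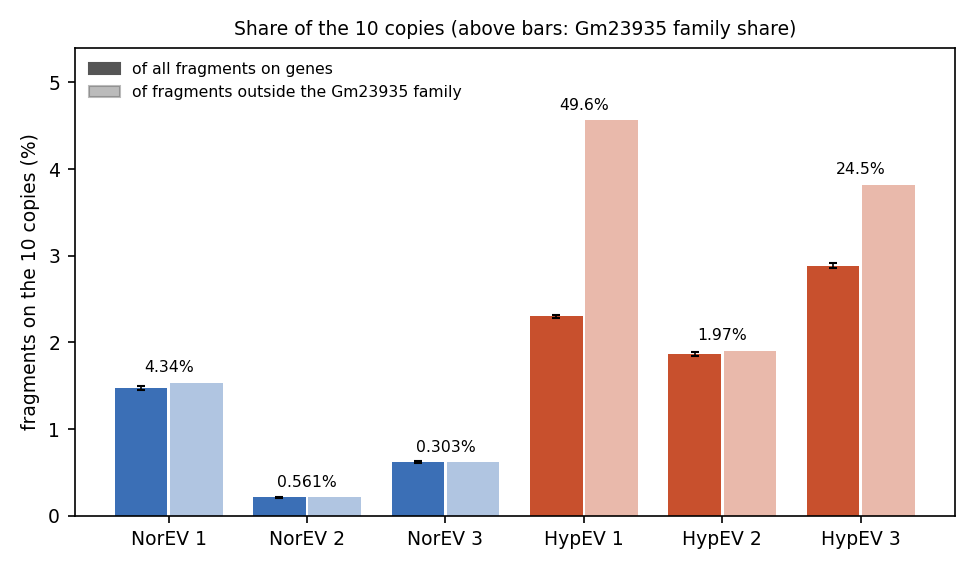
Share of fragments on the 10 copies in each library (y axis, percent), of all fragments on genes (dark bars, with 95% Wilson intervals) and of those outside the Gm23935 family (pale bars). The number above each pair is the share of the Gm23935 family. Dark bars run from 0.212 to 1.47% in NorEV (blue) and from 1.86 to 2.89% in HypEV (orange).

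The split between the copies was far steadier than their total. Chromosome 2 held 93.2, 91.2 and 92.5% of the family's fragments in NorEV 1, 2 and 3, against 94.4, 94.8 and 92.5% in the HypEV libraries. Chromosome 9 held 4.59, 5.83 and 5.52% and then 3.60, 3.81 and 5.43%, and chromosome 14 held 2.22, 2.96 and 1.96% and then 1.99, 1.43 and 2.08%. The groups overlapped on all 3 chromosomes. Meanwhile the family's fragments per library varied from 3003 to 49249.

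Within chromosome 2, the values of the 2 copies were as follows. Gm10800 took 80.04, 77.0 and 81.2% of the family's fragments in NorEV 1, 2 and 3, against 83.7, 86.8 and 82.1% in the HypEV libraries. Gm10801 took 13.1, 14.2 and 11.3% and then 10.7, 7.92 and 10.4%. The groups did not overlap for either copy, and the gap between NorEV 3 (95% Wilson interval 80.4 to 82.0% for Gm10800) and HypEV 3 (81.7 to 82.5%) was within counting error, since the intervals overlapped. On the FPKM scale Gm10800 exceeded Gm10801 by 4.65, 4.15 and 5.50 times in NorEV and by 5.96, 8.37 and 6.04 times in HypEV (means 4.77 ± 0.685 and 6.79 ± 1.37, SD, n = 3). This ratio within a library does not depend on the library's total. It was given no test because both copies were chosen on this contrast, and whether the copies changed unequally was not tested.

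Gm10717 was the other copy whose part in the family did not overlap between the groups. It took 0.443, 0.500 and 0.478% of the family's fragments in NorEV and 0.231, 0.234 and 0.336% in HypEV, from 15 to 128 reads per library. The parts of the copies add up to a whole, so the higher part of Gm10800 and the lower part of Gm10801 are not separate observations. No rate over other genes was worked out for this measure, so nothing is read from the copies that did not overlap. For the 6 other copies with reads the groups overlapped. Gm10722, for example, took 3.18, 4.30 and 4.11% in NorEV and 2.63, 2.55 and 4.14% in HypEV, and Gm11168 took 0.760 to 0.833% and 0.577 to 0.787%.

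**Figure D4:**
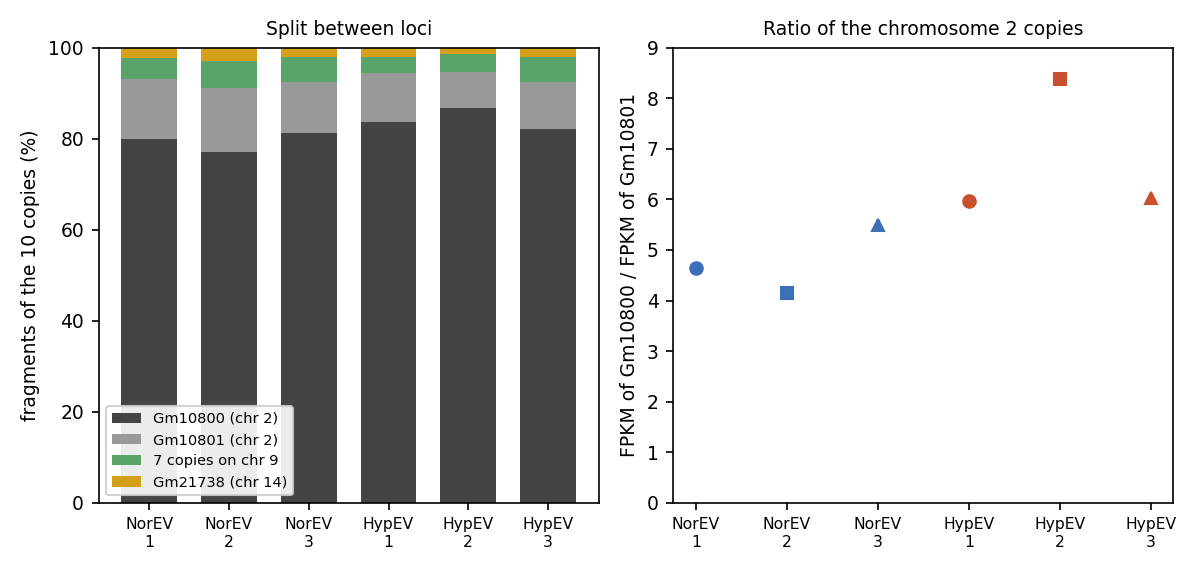
Left, percent of the family's fragments in each library that fell on Gm10800, on Gm10801, on the 7 copies of chromosome 9 and on Gm21738. Right, FPKM of Gm10800 over FPKM of Gm10801 in each library, 4.15 to 5.50 in NorEV (blue) and 5.96 to 8.37 in HypEV (orange).

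How much sequence a copy has to itself differed widely. Of all windows of 50 bases along its transcripts, Gm10801 had 82.9%, Gm10800 72.6% and Gm21738 68.0% in no other annotated gene. The chromosome 9 copies had 53.6% (Gm10717), 46.4% (Gm11168), 37.0% (Gm10722), 36.0% (Gm10715), 25.1% (Gm10718), 15.7% (Gm10721) and 11.7% (Gm10720). At 100 bases both chromosome 2 copies reached 100%, and Gm10720 and Gm10721 stayed lowest at 36.8 and 45.6%. The 3 copies with the fewest reads, Gm10721, Gm10720 and Gm10715, were among the 4 with the smallest share at 50 bases. At the extremes reads went with this share, with the chromosome 2 copies high in both and Gm10720 and Gm10721 low in both. Gm10722 and Gm10715, however, had like shares (37.0 and 36.0%) but 4579 and 28 reads summed over the libraries. The order was not the same from copy to copy. Summed over the libraries, Gm10800 held 118550 reads and Gm10801, with the larger share, 14945. Gm10722 held 4579 and Gm11168 1009, against 435 for Gm10717, and Gm10718 held 213 against 28 for Gm10715. Repeats outside annotated transcripts were not counted, because no genome sequence was used here.

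**Figure D5:**
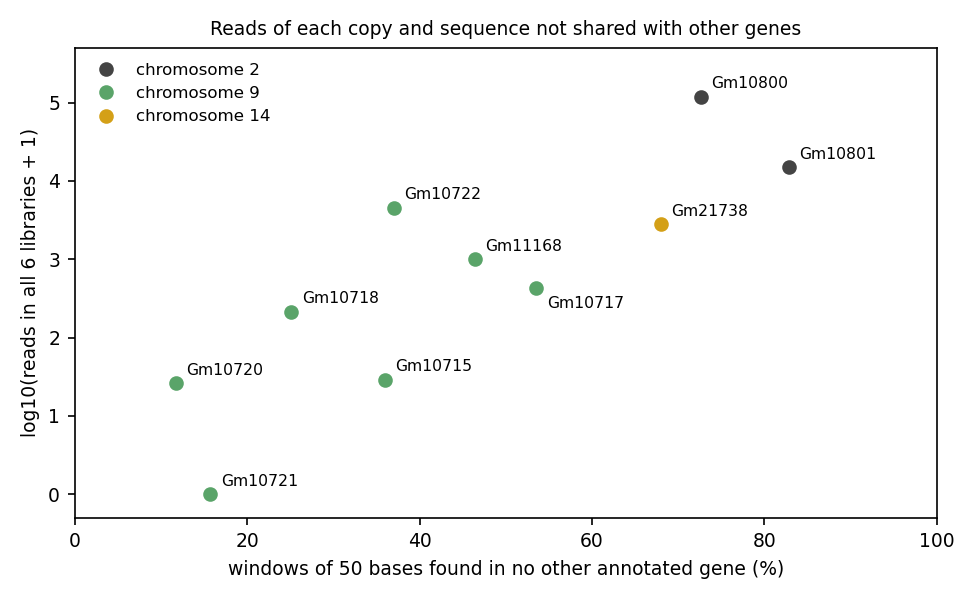
Reads of each copy summed over the 6 libraries, as log10(reads + 1), against the percent of its windows of 50 bases that lie in no other annotated gene. Colours mark the chromosome. The chromosome 2 copies (72.6 and 82.9%) hold the most reads and Gm10721 (15.7%) holds 0.

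How the counting treated reads that match several places is not given in the sources used here, and the values bear on it. Among genes without an overlapping gene on their strand, 1130 of 1627 whose windows of 50 bases all recur in another gene were at 0 in all libraries (69.5%), against 318 of 22032 with no shared window (1.44%). Between them, 20.2% of 3832 genes with at least 50% of their windows shared were at 0. The members of the family are thus uncertain one by one: a read from 1 copy, or from a repeat that is not annotated, may be counted on another copy or on none. Their sum over the family is less exposed to exchange among the copies than any single value.

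Gm26870, on the strand opposite the chromosome 9 copies, held fewer reads than the 7 copies together. Gm26870 spans chr9:3000282-3038313 on the minus strand, is 45.8% A, and aligns to Gm10800 in reverse at 89.2% identity. Its level was 305, 18.7 and 52.0 FPKM in NorEV 1, 2 and 3 and 185, 29.0 and 371 FPKM in HypEV 1, 2 and 3. The groups overlapped, HypEV 2 being near the low NorEV libraries. Per length, Gm26870 was above every chromosome 9 copy except Gm10722 in NorEV 1 (169 FPKM for Gm11168) and HypEV 3 (323 FPKM for Gm11168). In the other libraries it was below Gm11168. Of the reads on the 7 copies and Gm26870 together, Gm26870 held 34.6, 15.0 and 15.2% in NorEV and 20.7, 4.56 and 21.7% in HypEV. Exons of Gm26870 cover 41.1% of the exonic bases of Gm10721, 32.0% of Gm10715, 22.8% of Gm10718 and 12.4% of Gm11168, and none of the other 3 chromosome 9 copies. Strand was used in the counting: 653 of 656 genes with every exonic base shared by a gene on their own strand had no read in any library, but only 67 of 447 genes with every exonic base shared by a gene on the other strand.

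The other like genes outside the list also held few reads, 86 for Gm10719 and 22 for Gm17535 over the 6 libraries. Gm10719 was at 13.4, 0 and 3.93 FPKM in NorEV and at 17.8, 13.2 and 36.7 FPKM in HypEV. Gm17535 was at 2.72, 0 and 0 FPKM and at 10.4, 3.09 and 2.25 FPKM. In both the groups overlapped.

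The nearest genes outside the like genes named above were far lower than the main copies. The nearest gene to the chromosome 2 copies, Gm13806, lies 60.9 kb away and was at 0 to 2.82 FPKM. On chromosome 9, Mir101c lies 0.353 kb past the cluster and was at 0 in all libraries, and 4930433N12Rik, 95.5 kb away, was at 3.49 to 17.5 FPKM. On chromosome 14, Gm9637 lies 13.3 kb from Gm21738 and was at 1.53 to 13.9 FPKM. No neighbour reached the level of the main copy beside it in any library.

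For 8 of the 9 copies with reads, Gm10800 included, the profile over the libraries was much alike, and Gm10720, with 25 reads in all, was not. The measure was the root-mean-square difference of log2(FPKM + 1), centred on each gene's mean, from Gm10800 over the 6 libraries. It was 0.21 for Gm11168, 0.23 for Gm10718, 0.32 for Gm10801, 0.36 for Gm10722 and 0.36 for Gm21738. The other 3 were further off, at 0.44 for Gm10715, 0.52 for Gm10717 and 1.15 for Gm10720. Over 10867 genes outside the family with a mean of at least 10 FPKM and a transcript of at least 200 bases the median was 1.65, and 0 of them were as close as Gm21738. The nearest, Rprl3, missed this narrowly (0.366 against 0.363 for Gm21738). Gm10715 and Gm10717 were further off than Rprl3, and Gm10717 was further off than each outside gene listed below. Profiles as close as theirs were thus not confined to the family. Gm26870, on the opposite strand, stood at 1.18. The likeness holds the difference between the groups that chose the copies, and copies of like sequence can exchange reads, so it is a description only.

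The 5 nearest genes outside the family were Rprl3, at 0.37, then Gm5396 (0.42), Gm15678 (0.43), Gm18378 (0.43) and Gm29019 (0.45). Rprl3 is annotated as a ribozyme of the ribonuclease P RNA-like genes. It was at 60.0, 4.88 and 18.5 FPKM in NorEV 1, 2 and 3 and at 51.5, 64.4 and 141 FPKM in HypEV 1, 2 and 3, with overlap of the groups. Gm5396, Gm15678 and Gm18378 are processed pseudogenes and Gm29019 is a long non-coding RNA gene. These 4 had means of 15.7 to 21.8 FPKM.

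Messenger RNAs of proteins that package and silence pericentromeric repeats were mostly lower in HypEV, as were most genes. Of 34 such genes, which include the heterochromatin proteins Cbx1, Cbx3 and Cbx5, the histone methyltransferases Suv39h1 and Suv39h2 and the DNA methyltransferase Dnmt1, 5 were higher and 29 lower in HypEV by limma, and 0 passed in either direction. Their median log2 difference was -0.38, beside -0.44 over all genes tested, and 0.074 beside 0.01 when each library was centred on its median. The smallest p belonged to Ehmt1, a methyltransferase of histone H3, at 59.5, 90.4 and 69.2 FPKM in NorEV and 18.2, 43.1 and 26.5 FPKM in HypEV (log2 difference -1.35 ± 0.44 SE, limma adjusted p = 0.665). Lmnb1, a protein of the nuclear lamina, was next, at 25.1, 18.2 and 17.4 FPKM and at 6.24, 16.8 and 8.25 FPKM (-0.98 ± 0.47 SE, limma adjusted p = 0.720). In both genes all HypEV libraries were below all NorEV libraries. The share of all genes with this order was not worked out, so nothing is read from it.

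NorEV libraries held between 1092724 and 1494499 fragments on genes, and HypEV libraries between 1320916 and 2141611. A single read on a gene of 1 kilobase was worth 0.467 to 0.915 FPKM. Marker genes of neurons had medians of 4.55 to 14.3 FPKM over the libraries, those of astrocytes 5.26 to 14.6, of oligodendrocytes 2.63 to 7.31, of microglia 4.25 to 10.5, of endothelium and mural cells 3.70 to 11.1 and of erythroid cells 0 to 10.5. Of these markers 0 were at 0 in all libraries, and the ranges of neurons and of the other cells overlapped. The part of other cells in the levels of the copies was not tested. With no record of separate cultures, a p-value here reflects how these libraries vary, and that variation may be technical.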

How the data were processed

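RNA of sEV was taken up in Trizol and made into libraries with the Epi mini longRNA-seq kit, per the labels' protocols. The authors deposited FPKM for 53379 Ensembl genes in each of 6 libraries. Their aligner, genome build, annotation and treatment of multiply matching reads are not given in the sources used here. Because values are scaled to each library's total, a few abundant RNAs lower all others.

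Identifiers were matched to GENCODE M21 (GRCm38), which held 53274 and lacked 105. Taking the longest transcript as a gene's length, FPKM steps gave whole reads within 0.01 reads for 95.8 to 96.1% of values per library, and for the 10 copies in all libraries. With merged exons they were not whole for Gm11168, Gm10715 and Gm10717. The 51485 genes whole in all libraries were 96.5%. Recovered reads over all matched genes summed to 100.45 to 101.06% of the depth that these steps gave. The depth was therefore taken as the fragments counted on genes, although the sums lay slightly above it. Intervals and the floor of 3 reads cover counting error only.

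Genes whose mean reached 1 FPKM were tested with limma 3.58.1 (R 4.3.3) on log2(FPKM + 1), with eBayes and a trend, two-sided, no covariates and a Benjamini-Hochberg adjusted p under 0.05. Likeness used blastn 2.17.0, overlaps bedtools 2.31.1, and figures matplotlib 3.10.9. Other steps used scipy 1.17.1, numpy 2.4.6 and pandas 2.3.3 under Python 3.11.15. Replicates of a group differed beyond sampling noise (chi-square per degree of freedom 4.17 to 38.0).

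The named genes were the 10 copies, up to 5 like genes outside the list, the 5 genes nearest in profile, Gm23935, and from 34 heterochromatin genes the 2 of smallest p. Genes beside the copies were added. The members and lists were chosen with earlier results of these data known. Alternatives covered the pseudocount, the filter, scaling, gene length, the trend, a replicate block, each library left out, likeness limits and, added after the data were seen, limma-voom and the overlap counts.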

Additional observations from a re-analysis of the deposited data

How the results depend on the processing

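All 133 recomputed differences of the 9 copies, over 15 alternatives, kept their direction: 123 kept their side of the threshold and 10, all from limma-voom, passed it. The 9 copies' median log2 difference ran from 1.07 (without NorEV 2) to 2.25 (without NorEV 1). The count of genes past the threshold, 7 in the fit as reported, fell to 0 with a pseudocount of 0.1, with no filter, with each library centred on its median and without the trend. It ran from 0 to 71 with 1 library left out (71 without HypEV 2, 2 without NorEV 1 or HypEV 1, 0 without NorEV 2, NorEV 3 or HypEV 3), and limma-voom gave 231, or 60 without the Gm23935 family. With the replicate block it was 0. Deviations of libraries with the same number correlated at 0.045, 0.102 and -0.058, so the numbers were not taken to pair libraries. Copies with all HypEV libraries above all NorEV libraries numbered 4 of 9, beside 1.1% of all genes. With 1 library left out they numbered 4 to 9, beside 1.98 to 5.75% of all genes. With each library centred on its median they numbered 3, beside 5.87%. The HypEV share of the family was 3.43% without the Gm23935 family. With merged exon lengths, chromosome 2 held 89.1% of the family in NorEV and 91.6% in HypEV, and chromosome 9 held 8.60 and 6.61%. Copies of Gm10800 numbered 0 at 95% identity. The median of the heterochromatin genes was 0.074 with each library centred on its median, a change that this centring makes for all genes, whose median went from -0.44 to 0.01. The cause of the other changes was not tested. Gm10715, Gm10720 and Gm10721 held at most 12 reads in a library, so their values are coarse.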
